A study of Mus musculus with 6 samples.

Results

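The 10 genes described here encode enzymes that make, recycle or police nucleotides, and they were taken by symbol from a table of 17169 gene entries. All 10 symbols had an entry, with 1 entry each. Of the 10, Cad, Umps and Ctps act in pyrimidine synthesis, Ppat, Gart, Paics, Atic and Impdh2 in purine synthesis, Aprt in purine salvage, and Dctpp1 in the removal of unwanted deoxynucleotides. RNA was sequenced from 3 mouse lines, titled BBC, ZNF and BCRF8C, of stem cell leukemia/lymphoma syndrome (SCLL), in which fusions of the receptor kinase FGFR1 drive a cancer of blood cells. The lines came from the bone marrow of diseased Balb/c mice and were grown in RPMI medium with serum and antibiotics. One group of 3 libraries, 1 per line, was of cells given BGJ398 (infigratinib), a small inhibitor of FGFR kinases, for 24 h. The other group of 3 libraries was of cells of the same lines given DMSO, the solvent, for 24 h. The dose was 30 nM in BBC, 3 nM in ZNF and 1.5 nM in BCRF8C if the protocol lists doses in the order of the lines, and line and dose cannot be told apart. The sources used here do not give the fusion partner of FGFR1 in any line. Each line is a single culture line with 1 library per agent, and no label gives a repeat culture.

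A dividing cell needs purine and pyrimidine nucleotides for RNA, DNA and cofactors. It builds them from amino acids, bicarbonate and formyl groups carried by folate (synthesis), or it joins a ready-made base or nucleoside to a sugar phosphate (salvage). Both routes draw on phosphoribosyl pyrophosphate (PRPP). Lymphoid cells depend on synthesis when they proliferate, which is why inhibitors of inosine monophosphate dehydrogenase and of dihydroorotate dehydrogenase are used against lymphocytes. MYC is known to bind and activate many of the synthesis genes.

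Values are FPKM (fragments scaled to transcript length and to all mapped fragments) as the authors deposited them, so levels can be compared between genes per length, but not as amounts per cell. A lower FPKM cannot tell less of one RNA per cell from more of the others or from fewer cells of a kind, and depth is unknown. The percent left is the FPKM with BGJ398 over that with DMSO. Log2 ratios are of FPKM + 1, BGJ398 over DMSO, so those of low genes come out too small. Tests covered the 14232 genes whose mean reached 1 FPKM, and their median level was 4.53 FPKM with BGJ398 against 9.95 with DMSO in BBC, 6.47 against 8.36 in ZNF, and 4.92 against 9.03 in BCRF8C. Of the 9109 genes with a mean of 5 FPKM or more, 89.0% were lower with BGJ398 on average over the lines, and no repeat library tells the agent from a library's own shift. Of the blood cell genes Ptprc, Cd48, Coro1a and Lcp1, all 4 were above 1 FPKM in BBC and ZNF and 3 in BCRF8C, where Cd48 was listed at 0. The summed level of 6 B lineage genes was 441 FPKM with BGJ398 against 839 with DMSO in BBC, 7.52 against 0.430 in ZNF and 9.10 against 0.654 in BCRF8C. The summed level of the 4 T lineage genes with an entry was 406 FPKM with BGJ398 against 622 with DMSO in ZNF, 32.8 against 30.8 in BBC and 8.95 against 3.34 in BCRF8C. Most of the BBC sum was Lck (27.5 against 28.6), and the other 3 were under 1 FPKM there with DMSO. In ZNF only Cd8a went against the sum, at 20.3 FPKM with BGJ398 against 7.34 with DMSO. The sum of the 2 stromal genes with an entry was 6.56 FPKM with BGJ398 against 2.82 with DMSO in BBC, 3.20 against 0.372 in ZNF and 14.9 against 1.17 in BCRF8C. That of the 2 myeloid genes with an entry was 5.18 against 5.97 in BBC, 3.52 against 0.0977 in BCRF8C and listed at 0 in ZNF. Lineage and stromal sums that were low with DMSO were thus mostly higher with BGJ398, and their part in the results below was not tested.

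All 10 genes fell with BGJ398 in values as deposited. They were chosen with earlier results of these data known, so the counts below describe them and do not test them as a group. In limma's test with the line as a block, 10 of 10 passed at an adjusted p under 0.05, with mean log2 ratios from -3.05 for Aprt to -1.61 for Cad and a median of -2.11. Over all 14232 genes tested, 4295 fell (30.2%) and the median log2 ratio was -0.69. Among the 3830 tested genes whose mean level lay in the range of these genes, 16.5 to 117 FPKM, 58.0% fell and the median was -1.31. No value of any of the 10 genes was at 0. For 8 of the 10 genes the highest BGJ398 library was below the lowest DMSO library, a pattern shown by 35.1% of all tested genes and by 59.9% of those in the same range of levels. Gart and Atic were the exceptions, since ZNF kept more of both with BGJ398 than BCRF8C had with DMSO. The calls depend on the scaling, on the block and on the lines used. In limma 0 of 10 passed with median-of-ratios scaling (0.00703% of all genes fell), after quantile normalization (0.00703%) or with the trend of the ratio on expression removed (0.0%), while 10, 6 and 4 had an unadjusted p under 0.05. Without the block 0 of 10 passed (0.00703% of all genes fell). Leaving out BBC left 0 of 10 (0.0% of all genes, 3 members at an unadjusted p under 0.05), leaving out BCRF8C left 5 of 10 (5.99%) and leaving out ZNF left 10 of 10 (33.7%). Among genes above 0 in all libraries, a setting added after seeing the data, 0 of 10 passed after quantile normalization (0.597% of all genes fell; 6 members at an unadjusted p under 0.05) or with the trend removed (0.464%; 5 members). Other filters, a pseudocount of 0.1 and eBayes without its trend left 10 of 10. The shares of all genes that fell were then 23.2% without a filter, 53.9% at a mean of 5 FPKM, 44.5% among genes above 0 in all libraries, 29.2% with the pseudocount and 25.9% without the trend. The mean log2 ratio stayed below 0 for all 10 genes in each of these fits.

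Summed over the 10 genes, the level was 83.5 FPKM with BGJ398 against 814 with DMSO in BBC, so that 10.3% was left. The ZNF sum was 452 FPKM with BGJ398 against 985 with DMSO (45.9% left), and in BCRF8C it was 191 against 1011 (18.9% left). The 3 DMSO sums lay within a narrow range, whereas the BGJ398 sums were ordered BBC, BCRF8C and ZNF. The median level of all tested genes was left at 45.6% in BBC, at 77.4% in ZNF and at 54.5% in BCRF8C. Counted on FPKM + 1, all 10 genes were at least 2-fold lower in BBC, beside 45.0% of all genes of that line and 76.9% of those in the same range of levels. In BCRF8C all 10 were too, beside 43.5% and 76.9%. In ZNF 5 of 10 were at least 2-fold lower, namely Ctps, Paics, Impdh2, Aprt and Dctpp1, beside 16.3% and 27.4%. Umps, of which 48.7% was left in ZNF, was just outside this count at -0.99, and a pseudocount of 0.1 gave 6 of 10. Within a line there is 1 library per agent, so these counts have no replicate check.

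**Figure D1:**
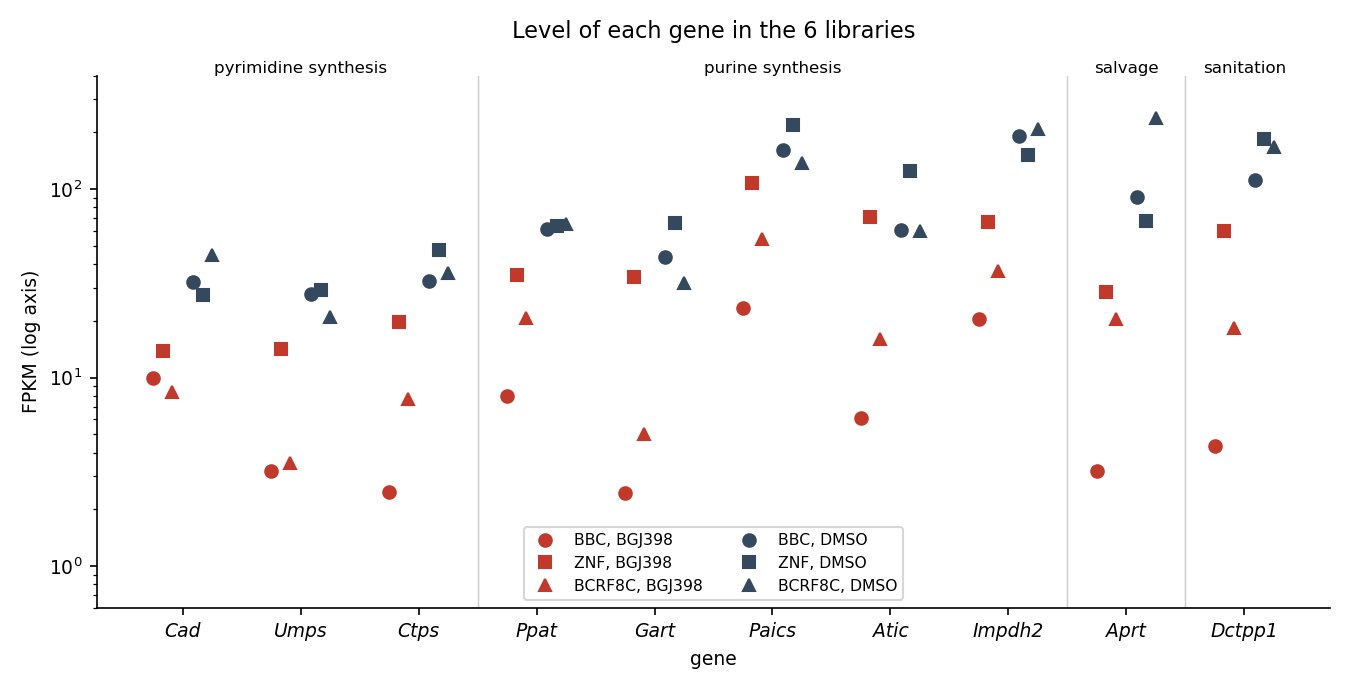
FPKM (log axis) of the 10 genes in each of the 6 libraries, with BGJ398 in red left of DMSO in dark blue and a symbol for each line. Every BGJ398 point lies below the DMSO point of its own line, ZNF squares are the highest BGJ398 points for all 10 genes, and the BBC circle is the lowest for 9 of them (not for Cad).

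Pyrimidine synthesis opens with Cad (ENSMUSG00000013629, chromosome 5, 31357153 to 31380852 in NCBIM37), a large protein that carries the carbamoyl phosphate synthetase, aspartate transcarbamylase and dihydroorotase activities. Cad stood at 9.91, 13.9 and 8.36 FPKM with BGJ398 in BBC, ZNF and BCRF8C, against 32.0, 27.6 and 44.6 FPKM with DMSO. The groups did not overlap, and BCRF8C, the highest of the DMSO libraries, was the lowest with BGJ398. Cad fell by 1.61 on the log2 scale (3 lines, SD 0.67; 95% interval -2.51 to -0.71; limma adjusted p = 0.0348). This was the smallest fall among the 10 genes, and in BBC, where 31.0% was left, 24.3% of all tested genes had a lower ratio than Cad.

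Umps (ENSMUSG00000022814, chromosome 16, 33954868 to 33967398, a locus shared in the table with 1 other entry), which joins orotate to PRPP and removes a carboxyl group to give UMP, stood at 3.18, 14.2 and 3.51 FPKM with BGJ398 in BBC, ZNF and BCRF8C. With DMSO it stood at 27.9, 29.1 and 21.0 FPKM. The DMSO libraries were close to each other, while with BGJ398 ZNF kept 48.7% and the other lines 11.4% and 16.7% in BBC and BCRF8C. The mean log2 ratio was -2.02 ± 0.93 (SD, n = 3 lines; limma adjusted p = 0.0348). Ctps (ENSMUSG00000028633, chromosome 4, 120212473 to 120242881), CTP synthase, stood at 2.46, 19.8 and 7.72 FPKM with BGJ398, against 32.4, 47.6 and 35.9 FPKM with DMSO in the same lines. Its groups did not overlap either, and 7.59% was left in BBC, 41.6% in ZNF and 21.5% in BCRF8C. Ctps had the largest fall of the 3 pyrimidine genes, at -2.19 ± 1.03 (SD, n = 3 lines; limma adjusted p = 0.0348).

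Purine synthesis is committed by Ppat (ENSMUSG00000029246), the amidotransferase that puts the first nitrogen on PRPP. Ppat stood at 7.96, 35.2 and 20.7 FPKM with BGJ398 in BBC, ZNF and BCRF8C, against 61.8, 63.6 and 65.2 FPKM with DMSO. Its DMSO levels were the most alike of the 10 genes (mean 63.5 ± 1.69 FPKM, SD, n = 3 lines), and the BGJ398 levels ranged over 7.96 to 35.2 FPKM. It fell by 1.75 on the log2 scale (3 lines, SD 0.99; limma adjusted p = 0.0372). Paics (ENSMUSG00000029247), which adds carbon dioxide and then aspartate to the growing ring, was the most abundant of the 10 genes in every BGJ398 library. It stood at 23.4, 107 and 54.4 FPKM with BGJ398 in BBC, ZNF and BCRF8C, against 161, 219 and 138 FPKM with DMSO. The mean log2 ratio of Paics was -1.69 ± 0.91 (SD, n = 3 lines; limma adjusted p = 0.0429), and its fall in BCRF8C, where 39.5% was left, was the smallest of the 10 genes in that line.

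Ppat and Paics are neighbours read in opposite directions, and the table gives both the locus 77342274 to 77396534 of chromosome 5 in NCBIM37, joined with 1 further entry. In RefSeq (GRCm38.p6) the start of Paics on the plus strand is at 76951302 and that of Ppat on the minus strand at 76951578, so that their first 277 bases overlap. Strandedness is not given in the sources used here, and without it reads from that overlap cannot be assigned to either gene. The level of Paics relative to Ppat in the same library was 2.94 with BGJ398 against 2.61 with DMSO in BBC, 3.04 against 3.44 in ZNF, and 2.63 against 2.11 in BCRF8C. The ratio thus stayed between 2.11 and 3.44 while Ppat itself varied from 7.96 to 65.2 FPKM. The windows from 250 bases before to 50 bases after both starts are shown because the genes of this pair share their start region. Capitals mark matches to the letters CACGTG (an E-box, the site of MYC and related factors), CCGGAAG (an ETS site), GCGCA joined to TGCGC (an NRF1 site) or TGATGNAAT (an amino acid response element), each searched on both strands.
Paics, chr5:76951052-76951351, plus strand: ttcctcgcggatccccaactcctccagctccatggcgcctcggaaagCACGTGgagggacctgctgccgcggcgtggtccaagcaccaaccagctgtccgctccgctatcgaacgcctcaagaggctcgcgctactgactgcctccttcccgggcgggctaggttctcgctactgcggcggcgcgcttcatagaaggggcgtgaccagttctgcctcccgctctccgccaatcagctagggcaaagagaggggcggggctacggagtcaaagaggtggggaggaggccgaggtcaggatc
Ppat, chr5:76951529-76951828, minus strand: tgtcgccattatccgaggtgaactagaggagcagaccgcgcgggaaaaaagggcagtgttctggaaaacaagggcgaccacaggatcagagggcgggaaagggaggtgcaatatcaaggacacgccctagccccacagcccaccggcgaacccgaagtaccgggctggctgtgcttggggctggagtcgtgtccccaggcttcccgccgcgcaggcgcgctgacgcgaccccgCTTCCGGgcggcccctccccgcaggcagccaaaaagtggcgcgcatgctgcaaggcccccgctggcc
The E-box of Paics begins 203 bases before its start, and the ETS match of Ppat, on the other strand, 17 bases before its start.

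Gart (ENSMUSG00000022962, chromosome 16, 91611713 to 91647197, a locus shared with 1 other entry) carries the first formyl transfer of the pathway and a step on either side of it. It stood at 2.43, 34.1 and 5.0 FPKM with BGJ398 in BBC, ZNF and BCRF8C, against 43.5, 66.4 and 31.9 FPKM with DMSO. ZNF with BGJ398 was above BCRF8C with DMSO, so the groups overlapped, although each line was lower with BGJ398. Gart fell by 2.36 on the log2 scale (3 lines, SD 1.38; limma adjusted p = 0.0348), the largest fall among the synthesis genes, with 5.60% left in BBC, 51.3% in ZNF and 15.7% in BCRF8C. Atic (ENSMUSG00000026192, chromosome 1, 71603724 to 71626205) makes the second formyl transfer and closes the ring to inosine monophosphate (IMP). It stood at 6.07, 71.5 and 16 FPKM with BGJ398, against 61.0, 126 and 60.2 FPKM with DMSO in the same lines. ZNF had the highest Atic level with either agent and kept 57.0%, the most of the 10 genes in that line, against 9.95% in BBC and 26.6% in BCRF8C. The mean log2 ratio of Atic was -1.93 ± 1.17 (SD, n = 3 lines; limma adjusted p = 0.0372).

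Impdh2 (ENSMUSG00000062867, chromosome 9, 108462774 to 108467895) encodes the inosine monophosphate dehydrogenase that turns IMP toward guanine nucleotides and limits their rate of synthesis. It stood at 20.6, 67.3 and 37.0 FPKM with BGJ398 in BBC, ZNF and BCRF8C, against 192, 153 and 208 FPKM with DMSO. It was the most abundant synthesis gene with DMSO in BBC and BCRF8C and second to Paics in ZNF. Impdh2 fell by 2.26 on the log2 scale (3 lines, SD 1.01; 95% interval -3.49 to -1.04; limma adjusted p = 0.0348). Like Paics, both Atic and Impdh2 hold an E-box in the window around the start, and their windows are shown for comparison with that of Paics.
Atic, chr1:71556906-71557205, plus strand: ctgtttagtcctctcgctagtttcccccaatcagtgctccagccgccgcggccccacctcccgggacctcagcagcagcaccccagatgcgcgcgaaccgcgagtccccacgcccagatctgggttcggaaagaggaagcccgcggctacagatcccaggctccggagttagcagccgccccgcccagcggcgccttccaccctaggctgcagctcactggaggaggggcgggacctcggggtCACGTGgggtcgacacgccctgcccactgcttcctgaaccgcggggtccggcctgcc
Impdh2, chr9:108560186-108560485, plus strand: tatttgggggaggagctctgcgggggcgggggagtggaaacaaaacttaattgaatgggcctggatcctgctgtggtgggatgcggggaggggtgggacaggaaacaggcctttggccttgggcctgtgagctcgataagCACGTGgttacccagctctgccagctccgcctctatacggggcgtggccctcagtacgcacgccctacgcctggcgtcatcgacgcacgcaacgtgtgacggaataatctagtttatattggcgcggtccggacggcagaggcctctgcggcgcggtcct
The E-box begins 7 bases before the start of Atic and 110 bases before that of Impdh2. The letters CACGTG were found in 3 of the 11 windows that RefSeq gives for the 10 genes, and in 7.15% of the 32851 windows in the table. The ETS letters were found in the windows of Ppat and Gart (8.86% of all windows) and the NRF1 letters in 1 of the 2 windows of Ctps (0.971%). The amino acid response letters were found in none of the 11 (0.965% of all windows). The members with an E-box had mean log2 ratios of -1.69, -1.93 and -2.26, beside a median of -2.11 over the 10 genes. A link between the letters and the falls was not tested. These matches describe letters and not bound sites.

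Aprt (ENSMUSG00000006589) encodes adenine phosphoribosyltransferase, which joins free adenine to PRPP to give AMP, and is the salvage gene among the 10. It stood at 3.18, 28.4 and 20.5 FPKM with BGJ398 in BBC, ZNF and BCRF8C, against 91.1, 67.4 and 239 FPKM with DMSO. The DMSO levels differed more between lines than those of any other of the 10 genes (mean 133 ± 93.0 FPKM, SD, n = 3 lines), with BCRF8C highest, yet no BGJ398 library reached a DMSO library. Aprt fell by 3.05 on the log2 scale (3 lines, SD 1.66; 95% interval -4.60 to -1.51; limma adjusted p = 0.0348), and 3.49% was left in BBC, 42.1% in ZNF and 8.57% in BCRF8C. In BBC 0.857% of all tested genes had a lower ratio, and in BCRF8C 1.72%. The table gives Aprt a locus of 4435365 bases on chromosome 8 (122434260 to 126869624 in NCBIM37) that stands for 64 entries, whereas the RefSeq gene spans 2271 bases (122574637 to 122576907 in GRCm38.p6), so the deposited locus is not the position of the gene alone.

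Dctpp1 (ENSMUSG00000042462, chromosome 7, 134400473 to 134404223) encodes a pyrophosphatase that degrades dCTP and modified forms of it, which keeps them out of DNA. It stood at 4.35, 60.1 and 18.3 FPKM with BGJ398 in BBC, ZNF and BCRF8C, against 112, 185 and 168 FPKM with DMSO. All 3 DMSO levels were well above the BGJ398 levels, with 3.89% left in BBC, 32.4% in ZNF and 10.9% in BCRF8C. Its mean log2 ratio of -3.05 ± 1.40 (SD, n = 3 lines; 95% interval -4.44 to -1.65; limma adjusted p = 0.0348) equalled that of Aprt to 2 decimals. In ZNF, the line with the smallest falls, Dctpp1 had the largest fall of the 10 genes (-1.61), and 2.85% of all tested genes had a lower ratio. The windows of Aprt and Dctpp1, the genes with the largest falls, are shown. None of the motifs searched was found in them, nor in those of Umps and of Cad, the gene with the smallest fall.
Aprt, chr8:122576858-122577157, minus strand: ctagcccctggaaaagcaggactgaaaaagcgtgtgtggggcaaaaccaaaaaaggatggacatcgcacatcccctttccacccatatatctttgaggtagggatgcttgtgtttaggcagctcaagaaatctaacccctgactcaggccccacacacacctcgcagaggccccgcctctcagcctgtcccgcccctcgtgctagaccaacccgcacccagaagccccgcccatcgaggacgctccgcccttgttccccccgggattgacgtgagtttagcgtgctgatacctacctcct
Dctpp1, chr7:127260618-127260917, minus strand: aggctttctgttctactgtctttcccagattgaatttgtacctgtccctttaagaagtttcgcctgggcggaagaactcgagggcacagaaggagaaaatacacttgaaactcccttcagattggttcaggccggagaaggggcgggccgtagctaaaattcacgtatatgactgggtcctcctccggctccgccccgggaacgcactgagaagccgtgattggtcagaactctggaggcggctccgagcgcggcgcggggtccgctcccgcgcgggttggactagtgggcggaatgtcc

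Among the 10 genes the spread of the ratios differed by line. The log2 ratios ran from -4.46 for Aprt to -1.60 for Cad in BBC, from -1.61 for Dctpp1 to -0.80 for Atic in ZNF, and from -3.48 for Aprt to -1.32 for Paics in BCRF8C, with medians of -3.15, -1.01 and -2.28. All 10 were below the median of all tested genes in each line, which was -0.91 in BBC, -0.37 in ZNF and -0.76 in BCRF8C. Aprt and Dctpp1 ranked first and second in BBC and BCRF8C. In ZNF Dctpp1 was first, followed by Ctps (-1.22) and Aprt (-1.22). Cad held the last place in BBC and the sixth in BCRF8C, whereas Paics was ninth in BBC and last in BCRF8C. The difference between lines was not tested, since each line has 1 library per agent.

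In each line the ratio was lower for more abundant genes, with medians of -1.31 in BBC, -0.61 in ZNF and -1.25 in BCRF8C over the genes with a mean of 5 FPKM or more. With the trend of the ratio on expression removed within each line, the median over the 10 genes was -1.62 in BBC, -0.24 in ZNF and -0.76 in BCRF8C, beside medians of all tested genes of 0.02, -0.01 and 0.02. In BBC all 10 remained below 0, from -3.03 for Aprt to -0.18 for Cad. In ZNF 8 of 10 were below 0, and Atic (0.12) and Ppat (0.01) were not. In BCRF8C 8 of 10 were below 0, and Paics (0.60) and Ppat (0.02) were not. After quantile normalization the same sign changes were seen for Atic in ZNF (0.02) and Paics in BCRF8C (0.49), while Ppat stayed below 0 in both lines (-0.08 in ZNF and -0.12 in BCRF8C). With median-of-ratios scaling all 10 were below 0 in every line. Counted at 2-fold, 9, 9 and 8 of 10 were lower in BBC with median-of-ratios scaling (14.3% of all genes), quantile normalization (16.7%) and the trend removed (11.5%). In ZNF the counts under the same settings were 1 (Dctpp1; 6.82% of all genes), 0 (5.63%) and 0 (4.2%). In BCRF8C they were 8 (19.1%), 5 (19.1%) and 4 (13.3%), and Umps, Gart, Aprt and Dctpp1 were counted in all 3. The mean over the lines was -1.68 for Aprt (limma adjusted p = 0.202) and -1.65 for Dctpp1 (limma adjusted p = 0.190) with the trend removed, and -0.16 for Paics (limma adjusted p = 0.791).

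**Figure D2:**
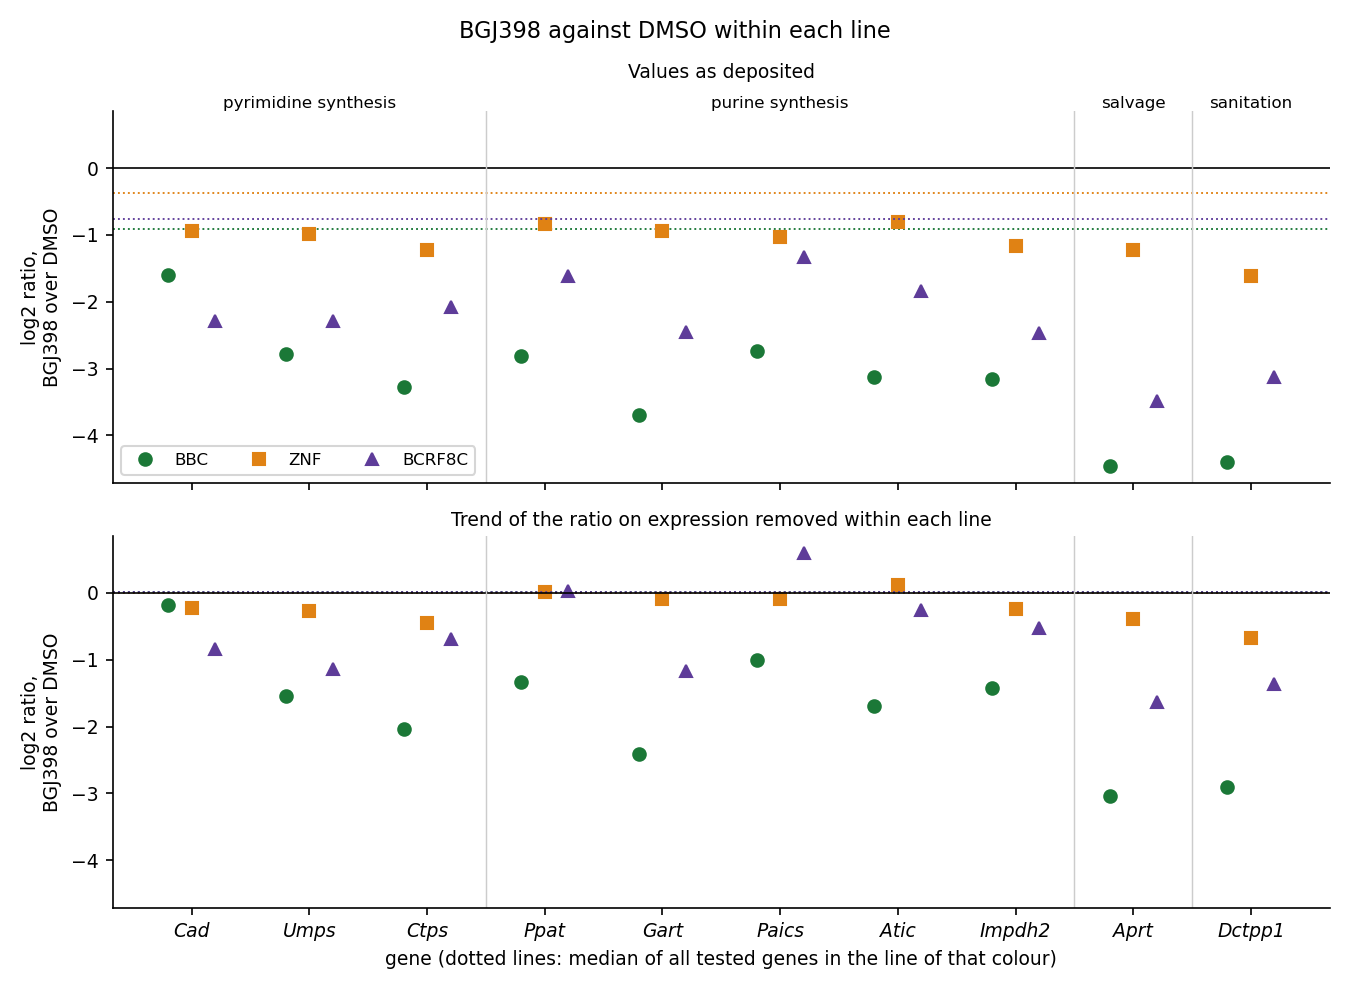
Log2 ratio of BGJ398 over DMSO for the 10 genes in BBC, ZNF and BCRF8C, as deposited (upper panel) and with the trend on expression removed (lower panel); dotted lines mark the median of all tested genes in each line. The BBC points of Aprt (-4.46 and -3.03) and Dctpp1 lie lowest in both panels, and in the lower panel Paics in BCRF8C (0.60), Atic in ZNF (0.12) and Ppat in both of those lines lie above 0.

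Set against synthesis, Aprt was lower than the median of the 8 synthesis members in each line under all 4 scalings, as deposited by 1.49 on the log2 scale in BBC, 0.25 in ZNF and 1.30 in BCRF8C. None of the 8 synthesis genes had a larger fall than Aprt in BBC or BCRF8C, and 1 of 8 (Ctps) had in ZNF. The 5 other tested purine salvage genes had medians of -2.29, -0.95 and -1.73 in BBC, ZNF and BCRF8C as deposited. Those of the 8 synthesis members were -2.97, -0.97 and -2.18. As a group, the other purine salvage genes thus did not share the larger fall of Aprt. The level of Aprt relative to that of Ppat in the same library was 0.399 with BGJ398 against 1.47 with DMSO in BBC, 0.806 against 1.06 in ZNF, and 0.989 against 3.67 in BCRF8C. Relative to Impdh2, which fell more than Ppat, it was 0.155 against 0.476 in BBC, 0.422 against 0.441 in ZNF, and 0.554 against 1.15 in BCRF8C. Within synthesis the medians were -2.79, -0.99 and -2.28 for the 3 pyrimidine genes and -3.13, -0.94 and -1.85 for the 5 purine genes in BBC, ZNF and BCRF8C. Over wider lists, the median log2 ratio of 17 synthesis genes minus that of 13 salvage genes was -0.49 in BBC, 0.01 in ZNF and 0.11 in BCRF8C. In these lists synthesis was thus the lower class in BBC, and the classes were close in the other lines. The sign there depends on the scaling in ZNF and on the pseudocount in both. The 17 synthesis genes include the 8 synthesis members and the 13 salvage genes include Aprt, all chosen with results of these data known. Outside the members the BBC medians were -1.54 and -1.38 for purine and pyrimidine synthesis, against -2.29 and -1.27 for purine and pyrimidine salvage. The lower value of synthesis in BBC thus depended on the members. The class medians and differences are values of 1 pair of libraries each, without a test.

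**Figure D3:**
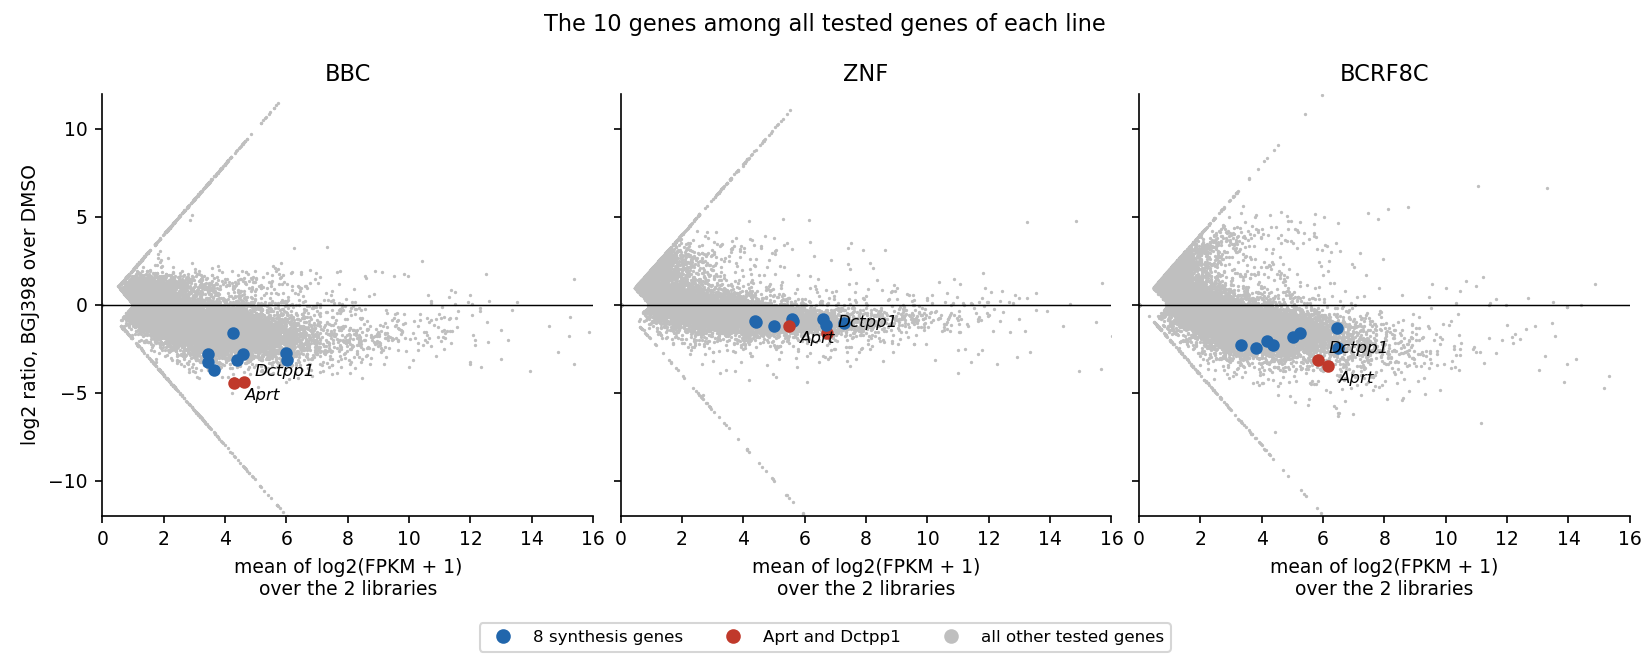
Log2 ratio of BGJ398 over DMSO against the mean log2(FPKM + 1) of the 2 libraries for all 14232 tested genes in BBC, ZNF and BCRF8C, with the 8 synthesis genes in blue, Aprt and Dctpp1 in red and the others in grey; in BBC, ZNF and BCRF8C 10, 4 and 4 genes lie above or below the axes and 2, 6 and 1 to their right. Most abundant genes lie below 0 in all panels, and Aprt and Dctpp1 (-4.46 and -4.40) lie at the lower edge of the cloud in BBC.

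The wider pathway was examined through 9 lists with 60 genes, of which 52 had an entry and 50 could be tested. Of the 50, 33 fell, 1 rose and 16 did not pass, and their median log2 ratio was -1.41, beside -0.69 over all genes. The counts of each list are to be read against the 30.2% of all tested genes, and the 58.0% of those at the levels of the 10 members, that fell. These calls hold for values as deposited, and median-of-ratios scaling, quantile normalization and removal of the trend called 4, 3 and 0 genes of the whole table. In purine synthesis outside the members 4 of 6 fell. Adsl, adenylosuccinate lyase, had the largest fall (-2.19 ± 0.97, SD, n = 3 lines; limma adjusted p = 0.0348). Impdh1, the other inosine monophosphate dehydrogenase, did not pass at -0.19 ± 1.11 (limma adjusted p = 0.737). In pyrimidine synthesis 2 of 3 fell, led by Dhodh, the mitochondrial dihydroorotate dehydrogenase (-1.36 ± 0.44), while Ctps2, the other CTP synthase, did not pass at -0.69 ± 0.24 (limma adjusted p = 0.113). Of 4 genes for making PRPP 2 fell, with Prps1, a PRPP synthetase, at -2.09 ± 0.97, and Prps2, the other, did not pass at -0.70 ± 0.41 (limma adjusted p = 0.137). All 5 genes of folate one-carbon supply, which provides the formyl groups for Gart and Atic, fell, from -3.04 for Shmt2, the mitochondrial serine hydroxymethyltransferase, to -2.16 for Shmt1, the cytosolic one. That list had the lowest median of the 9 lists (-2.63 as deposited and -1.42 with the trend removed).

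In 3 pairs of isozymes the members or list genes with a large fall had a partner with a smaller one, a contrast chosen after the values were seen and partly built in, since the partners were named for the highest ratio of their list. Ctps had log2 ratios of -3.27, -1.22 and -2.08 in BBC, ZNF and BCRF8C, beside -0.54, -0.97 and -0.57 for Ctps2. Impdh2 had -3.16, -1.17 and -2.46, beside -0.97, -0.68 and 1.08 for Impdh1. Prps1 had -3.0, -1.06 and -2.21, beside -0.75, -0.27 and -1.08 for Prps2. The lower isozyme was the same in all 3 lines for each of these pairs, as deposited and with the trend removed, and the difference within a pair was not tested. Under the other 3 scalings the mean log2 ratios lay between -1.53 and -0.73 for Ctps, Impdh2 and Prps1, and between 0.01 and 0.52 for Ctps2, Impdh1 and Prps2. The adenylosuccinate synthases Adss and Adssl1, also named after their values were seen, did not show such a contrast as deposited. Their log2 ratios were -1.54, -0.59 and -1.29 for Adss beside -1.38, -0.38 and -1.41 for Adssl1. With the trend removed they were 0.03, 0.31 and 0.43 beside 0.03, -0.55 and -2.21, so Adssl1 was the lower in ZNF and BCRF8C. Adssl1 was low in those lines, at 1.74 FPKM with BGJ398 against 2.58 with DMSO in ZNF and 0.690 against 3.48 in BCRF8C. Impdh1 was at 2.29 FPKM with BGJ398 against 0.562 FPKM with DMSO in BCRF8C, at 6.10 against 12.9 in BBC and at 8.64 against 14.5 in ZNF.

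Among purine salvage genes 5 of the 5 tested fell besides Aprt, from -2.18 ± 1.18 for Adk, adenosine kinase, to -1.18 ± 0.68 for Ada, adenosine deaminase (limma adjusted p = 0.0348 and 0.0439). Among 7 pyrimidine salvage genes 3 fell and 4 did not pass, with Uck2 counted there, and among the 50, by its entry of 93 bases. The largest mean difference there belonged to an entry of 93 bases named Uck2 (-4.25 ± 4.75, limma adjusted p = 0.0724), which was listed at 0 in both BCRF8C libraries and in BBC with BGJ398, whereas the entry of the whole Uck2 gene, a uridine-cytidine kinase, was at -2.08 ± 0.30 (limma adjusted p = 0.0348). Upp2, a uridine phosphorylase, had the highest mean (0.59 ± 0.14, limma adjusted p = 0.203). Of 8 deoxynucleotide supply genes 6 fell, led by the thioredoxin gene Txn1 (-2.10 ± 1.02), and Rrm2b, the ribonucleotide reductase subunit induced by p53, was at 0.01 ± 0.30 (limma adjusted p = 0.977). Of 4 tested genes that, like Dctpp1, clean or limit the nucleotide pool 3 fell, led by the dUTPase gene Dut (-2.35 ± 1.24), and Samhd1, which hydrolyses deoxynucleotides, was at -0.45 ± 0.95 (limma adjusted p = 0.386). Of 8 tested breakdown genes 3 fell, led by the nucleotidase gene Nt5c (-1.73 ± 1.07), and Upb1, which acts last in pyrimidine breakdown, rose by 1.69 (SD 0.75, n = 3 lines; limma adjusted p = 0.0352), a direction called for 6.61% of all genes. Upb1 was at 3.67, 2.85 and 5.81 FPKM with BGJ398 in BBC, ZNF and BCRF8C, against 1.40, 0.239 and 0.239 FPKM with DMSO. Its level was low, like that of the stromal sum, which was also higher with BGJ398 in each line, and the mean log2 ratio of Upb1 was 1.30 with the trend removed. Removing the trend left every list median below 0 except that of the 3 other pyrimidine synthesis genes, which was 0.13 there, 0.03 after quantile normalization and -1.15 as deposited.

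**Figure D4:**
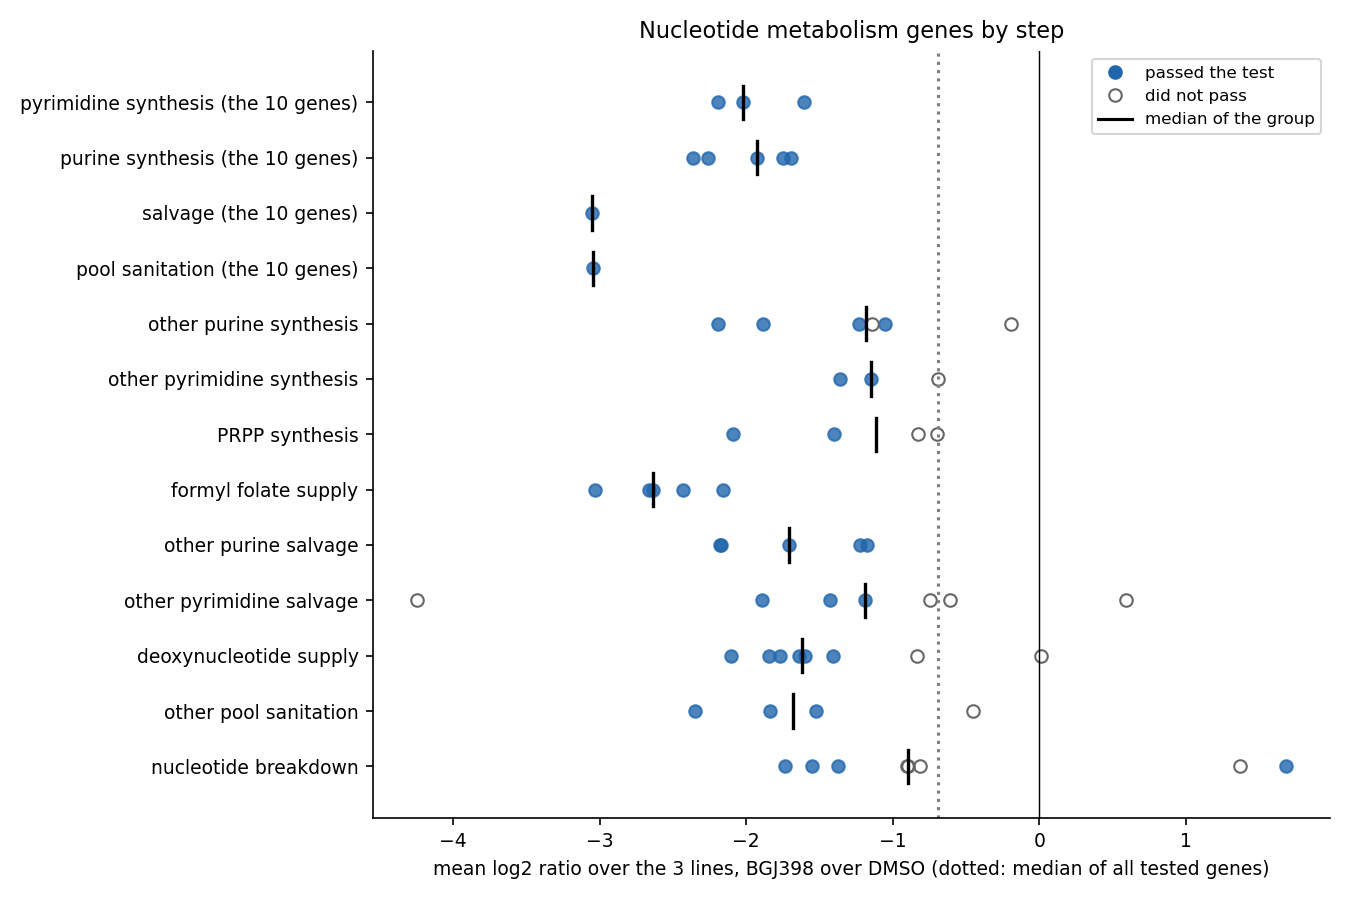
Mean log2 ratio over the 3 lines, BGJ398 over DMSO, for each tested gene (point) of 13 groups of nucleotide metabolism genes, as deposited; filled points passed limma's test, open points did not, black bars are group medians and the dotted line is the median of all tested genes (-0.69). The 10 genes fill the upper 4 rows between -3.05 and -1.61, the folate supply genes lie at -3.04 to -2.16, and Upb1 is the filled point right of 0.

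Across the 6 libraries, the genes whose log2 levels ran most like the mean of the 10 were Cct6a, a subunit of the TRiC chaperonin, Gins1, a subunit of the replicative helicase complex, and Cnot10, a subunit of the CCR4-NOT deadenylase. Rpl17-ps3, a pseudogene whose reads may be shared with its parent gene, and Taf9, a subunit of the general transcription factor TFIID, completed the first 5. Their Pearson correlations lay between 0.9985 for Taf9 and 0.9996 for Cct6a, over 6 libraries that share 3 lines and 2 agents, and 2890 genes reached at least 0.9. The members themselves correlated with their own mean at 0.890 for Cad to 0.995 for Dctpp1. Cct6a was at 19.3, 114 and 41.7 FPKM with BGJ398 in BBC, ZNF and BCRF8C, against 201, 247 and 224 FPKM with DMSO. The order of the lines with BGJ398 was that of the summed level of the 10 genes, as follows from its choice by this correlation.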

How the data were processed

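RNA of 3 mouse SCLL lines, each with BGJ398 or DMSO, was measured in 6 libraries, 1 per line and agent. The authors deposited FPKM values for 17169 gene entries. The submitters' processing notes name bcl2fastq, TopHat2 2.0.12 and the mouse build NCBIM37. How FPKM was estimated, with which annotation and whether by strand is not given in the sources used here, and depth is unknown. The 6 columns matched the sample titles, and 0 value columns were left unmapped. Starts were raised by 1, since end minus start equalled the RefSeq gene length for 1375 of 9770 matched entries and that length minus 1 for 190.

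Values were tested as log2(FPKM + 1) in limma 3.58.1 (R 4.3.3) for the 14232 genes whose mean reached 1 FPKM. The model held the agent and, as a block, the line, and eBayes used a trend. Two-sided p-values got the Benjamini-Hochberg adjustment over these genes, with calls under 0.05. The fit was also run on simulated data with planted changes, a capped spread and no trend of the ratio on expression. That run bears on how the fit was coded and not on the calls made here. No repeat cultures are named, so each p reflects the spread between 3 lines. The pairing comes from the line that both libraries share, and deviations from the group means correlated at 0.454, 0.541 and 0.549 within BBC, ZNF and BCRF8C. Within a line, genes were counted at a 2-fold limit where its 2 libraries averaged 1 FPKM or more. Trends were removed by loess (span 0.3). Where a symbol had several entries, that with the highest mean FPKM was used.

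The members and the gene lists were chosen with earlier results of these data known. Named outside the members were, per list, the tested genes with the lowest and the highest mean ratio, and the 5 genes most correlated with the mean of the members. Promoter windows are from RefSeq (GRCm38.p6), in which all 10 members matched by symbol. Alternatives were other scalings, pseudocounts and filters, the fit without the block, and leaving out each line.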

Additional observations from a re-analysis of the deposited data

Results flagged for a closer look

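Of the pathway and blood cell genes named above, 4 had ratios of opposite sign in different lines in values as deposited. Impdh1 had log2 ratios of -0.97 in BBC, -0.68 in ZNF and 1.08 in BCRF8C. Rrm2b had log2 ratios of -0.33 in BBC, 0.19 in ZNF and 0.18 in BCRF8C. Samhd1 had log2 ratios of -0.59 in BBC, 0.56 in ZNF and -1.32 in BCRF8C. Its ZNF level was low, at 1.47 FPKM with BGJ398 against 0.676 with DMSO. Coro1a, of the blood cell genes, had log2 ratios of -2.44 in BBC, -1.08 in ZNF and 0.70 in BCRF8C. Its BCRF8C level was low, at 2.85 FPKM with BGJ398 against 1.38 with DMSO, beside 286 and 226 FPKM with DMSO in BBC and ZNF. The signs depend on the scaling. With the trend removed, the log2 ratios in BBC, ZNF and BCRF8C were 0.22, -0.11 and -0.04 for Impdh1. They were 0.79, 0.58 and 1.23 for Rrm2b, and 0.90, -0.24 and 0.16 for Samhd1. Rrm2b was then above 0 in every line, and Impdh1 and Samhd1 had changed sign in BBC and BCRF8C. With 1 library per line and agent, the difference between the lines was not tested.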

How the results depend on the processing

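The number of genes called across lines was 5236 as deposited (941 higher, 4295 lower). It was 4 (3 higher) when scaled by median-of-ratios, 3 (2 higher) with quantiles equalised, 0 in limma once the expression trend was taken out (3084 at an unadjusted p under 0.05) and 7 (6 higher) without the replicate block. Among genes above 0 in all 6 libraries, settings chosen after seeing the data, it was 461 after quantile normalization and 412 with the trend removed. Of the 10 members, 0 were called in limma with each of those 3 scalings, in both of those added settings and without the replicate block (adjusted p from 0.0797 to 0.139 there, 9 at an unadjusted p under 0.05). All 10 kept their call with a pseudocount of 0.1, without a filter, at a mean of at least 5 FPKM, among genes above 0 in all libraries and without the intensity trend in eBayes. Leaving out 1 line gave 0 to 4974 genes and 0 to 10 members, with 0 genes (2991 at an unadjusted p under 0.05) and 0 members without BBC (limma adjusted p for the members from 0.227 to 0.235) and 1648 genes and 5 members without BCRF8C, where Cad, Ppat, Paics, Atic and Impdh2 lost the call. No mean ratio of a member changed sign in any of the 14 alternatives. Members at least 2-fold lower in ZNF numbered 5 as deposited on FPKM + 1, 6 with a pseudocount of 0.1, 1 by median-of-ratios, 0 with quantiles equalised and 0 with the trend removed. In BCRF8C they numbered 10 as deposited, 5 after quantile normalization and 4 with the trend removed. With the members included, synthesis minus salvage ran from -0.62 to -0.49 in BBC, -0.13 to 0.01 in ZNF and -0.07 to 0.25 in BCRF8C. The causes were not tested. Depth is unknown, so counting error is not part of any value.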
